A study of Mus musculus with 192 samples.

Results

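Mouse bone marrow-derived dendritic cells that had received PAM, LPS and CpGB together were compared with cells that had received each pair of these ligands, to see what the third ligand added to each pair. The libraries were chosen by their labels: 3 of the triplet PAM+LPS+CpGB and 3 each of PAM+LPS, PAM+CpGB and LPS+CpGB, 12 libraries of a series of 64 groups with 3 libraries each. The cells had been grown with 15 ng/ml GM-CSF from the bone marrow of female C57BL/6J mice 6 to 8 weeks old, plated at 100000 per well and stimulated for 6 h, which all groups share except that Ctrl is named without a ligand. The 3 single-ligand groups (PAM, LPS, CpGB) and Ctrl, 3 libraries each, were set beside them. Doses were not used here, and the labels do not say whether the 3 libraries of a group came from separate mice or cultures. The p-values therefore measure the spread between libraries of a group, pooled over all 64 groups, which may be technical. That pooled spread can be too small for a group whose libraries differ more than most. Marrow cultures with GM-CSF hold more than 1 kind of myeloid cell, and in a bulk lysate fewer cells of a type and less RNA per cell cannot be told apart.

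The ligands meet Toll-like receptors, sensors of microbial molecules on innate immune cells. LPS, a lipid of the outer membrane of Gram-negative bacteria, is bound by TLR4 with CD14 and MD-2, and TLR4 signals through the adaptor MyD88, which leads to NF-kB and MAP kinases, and through the adaptor TRIF, which leads to IRF3, type I interferon and, through the interferon receptor, the interferon-stimulated genes. In this field PAM is the short name of lipopeptides bound by TLR2, and B-class CpG oligonucleotides are DNA bound by TLR9 in endosomes. Both of those receptors signal through MyD88. The labels do not spell out the names PAM and CpGB, which are used here as the labels give them.

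Each value below is a UMI count (a count of tagged cDNA molecules) or CPM, the count scaled to the same total in every library. The 12 libraries held 102663 to 333995 counts, the PAM+CpGB libraries being the shallowest group at 102663 to 133006, and the Ctrl libraries 61823 to 89530. Markers fitted the label in part: the dendritic cell markers summed to 3213 to 3489 CPM in the triplet and 3354 to 3464 in PAM+CpGB, but Flt3, Clec9a and Dpp4 were at 0 in both groups, and the macrophage markers summed to 4674 to 5158 CPM in the triplet and 4284 to 5152 in PAM+CpGB. All 9 T and NK cell markers in the file were at 0 in the triplet, as were 6 of the 7 erythroid markers, and the B cell markers summed to at most 5.81 CPM there. Neutrophil markers summed to 805 to 1023 CPM in the triplet and 740 to 1216 in PAM+CpGB. The part of these markers in the results below was not tested.

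In PAM+LPS 1 library stood apart from the others of its group by distance and by its counts, and in the triplet 1 library did so by its counts. Over the 500 genes most variable in the series, PAM+LPS replicate 1 lay 0.708 log2 units (root mean square) from the mean of its own group's other libraries, which ranked 9th among the 64 groups, and 0.609 from the triplet, while replicates 2 and 3 lay nearest to their own group at 0.506 and 0.481. Triplet replicate 2 lay 0.489 from its own group, which ranked 3rd, and 0.469 from LPS+CpGB. Triplet replicates 1 and 3 lay nearest to their own group, at 0.524 and 0.467, so replicate 2 was not the farthest from its group by this distance. Rank alone does not set a library apart here, since the LPS+CpGB and PAM+CpGB libraries ranked their own group 2nd or 3rd and lay nearest to the group that also had HMW, another ligand of the series. Counts of PAM+LPS replicate 1 differed from those of replicates 2 and 3 with a chi-square of 2.55 and 2.59 per degree of freedom, against 1.40 between replicates 2 and 3, and those of triplet replicate 2 differed from its fellows with 1.94 and 1.96, against 1.24. For the genes named under each addition, the calls lost without both libraries are given below.

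The results turn on 2 kinds of target gene, whose promoters are shown here so that a reader can see the letters behind the names. Cxcl1 and Cxcl2, neutrophil-attracting chemokines and textbook NF-kB targets, changed with both LPS and PAM as the third ligand. Cxcl10, a chemokine for T cells, and Ifit1, an antiviral RNA-binding protein, are interferon-stimulated genes that changed with LPS. Each line gives 300 bases, the last 50 of them after the annotated start, 5′ to 3′ on the gene's strand, from RefSeq (GRCm38.p6, the build called mm10). Capitals mark matches on either strand to a kB motif (GGGA, any base, TTTCC) or to the core of the interferon-stimulated response element, ISRE (GAAA, any 2 bases, GAAA).

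Cxcl1, plus strand, chr5:90890995-90891294:
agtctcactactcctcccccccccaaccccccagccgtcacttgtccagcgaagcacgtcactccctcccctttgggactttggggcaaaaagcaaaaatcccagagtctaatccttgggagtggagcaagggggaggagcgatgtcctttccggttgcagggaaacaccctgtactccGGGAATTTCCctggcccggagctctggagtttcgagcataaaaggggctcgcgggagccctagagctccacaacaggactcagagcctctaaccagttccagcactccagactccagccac

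Cxcl2, plus strand, chr5:90903649-90903948:
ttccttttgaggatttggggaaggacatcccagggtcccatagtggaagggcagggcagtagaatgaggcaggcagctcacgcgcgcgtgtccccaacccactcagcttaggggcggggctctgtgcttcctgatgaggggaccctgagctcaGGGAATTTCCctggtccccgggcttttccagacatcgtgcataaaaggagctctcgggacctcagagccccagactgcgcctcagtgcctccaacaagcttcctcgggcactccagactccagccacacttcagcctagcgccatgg

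Cxcl10, minus strand, chr5:92348840-92349139:
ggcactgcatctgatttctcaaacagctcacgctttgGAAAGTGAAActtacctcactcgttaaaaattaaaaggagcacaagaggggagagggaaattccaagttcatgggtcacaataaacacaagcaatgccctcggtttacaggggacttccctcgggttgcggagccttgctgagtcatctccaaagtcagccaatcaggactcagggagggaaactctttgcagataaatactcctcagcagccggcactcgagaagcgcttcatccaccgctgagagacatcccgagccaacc

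Ifit1, plus strand, chr19:34640639-34640938:
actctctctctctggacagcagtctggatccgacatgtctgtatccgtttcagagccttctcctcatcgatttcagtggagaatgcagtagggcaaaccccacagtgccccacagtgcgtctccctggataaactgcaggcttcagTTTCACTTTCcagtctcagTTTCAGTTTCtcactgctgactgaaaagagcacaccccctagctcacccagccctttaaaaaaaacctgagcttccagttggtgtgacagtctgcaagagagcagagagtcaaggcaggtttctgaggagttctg

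The kB match began 71 bases before the start in Cxcl1 and 97 in Cxcl2, the ISRE match 213 before it in Cxcl10, and the 2 ISRE matches 104 and 85 before it in Ifit1. The ISRE letters were in 3.99% of 27025 RefSeq promoters, in 5.09% of the 3614 tested genes with a promoter entry, in 14.3% of the 405 such genes that rose when LPS was added and in 3.56% of the 253 that fell. The kB letters were in 0.466% of all promoters, in 0.747% of tested genes in 2.22% of the genes that rose with LPS and in 1.19% of those that fell, the set that holds Cxcl1 and Cxcl2. The promoters shown all hold a match, which many genes of both kinds lack. Of 11 listed interferon response genes with a promoter entry, 5 had the ISRE letters, and of 11 listed inflammatory genes 4 had the kB letters. Irf7, Ifit2, Tnf and Il1b, for example, had neither. These shares describe letters in a window and were not tested.

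A gene was called when edgeR's quasi-likelihood test, fitted over all libraries and 4720 genes, gave an adjusted p under 0.05, and "rose" and "fell" are used below only of called genes. Adding LPS to PAM+CpGB changed 866 genes (18.3% of those tested), of which 540 rose (11.4%) and 326 fell (6.91%). Adding CpGB to PAM+LPS changed 45 (0.953%), of which 12 rose (0.254%) and 33 fell (0.699%). Adding PAM to LPS+CpGB changed 4 (0.0847%), of which 3 rose (0.0636%) and 1 fell (0.0212%). At an unadjusted p under 0.05 the counts were 1366, 490 and 274. A log2 fold change of at least 1 was found in 380 higher (8.05%) and 219 lower (4.64%) called genes with LPS, 5 (0.106%) and 10 (0.212%) with CpGB and 0 (0%) and 1 (0.0212%) with PAM. All 3 triplet libraries lay above all 3 of the pair in 16.9%, 5.81% and 6.82% of tested genes with LPS, CpGB and PAM added, and below them in 14.4%, 8.03% and 5.13%. Over 3220 genes of at least 50 CPM the root mean square log2 fold change was 0.929 for LPS, 0.435 for CpGB and 0.389 for PAM, beside median standard errors of 0.347, 0.298 and 0.304 for genes of that level. The 3 comparisons share the triplet libraries, and values are therefore set side by side without a test between them.

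**Figure D1:**
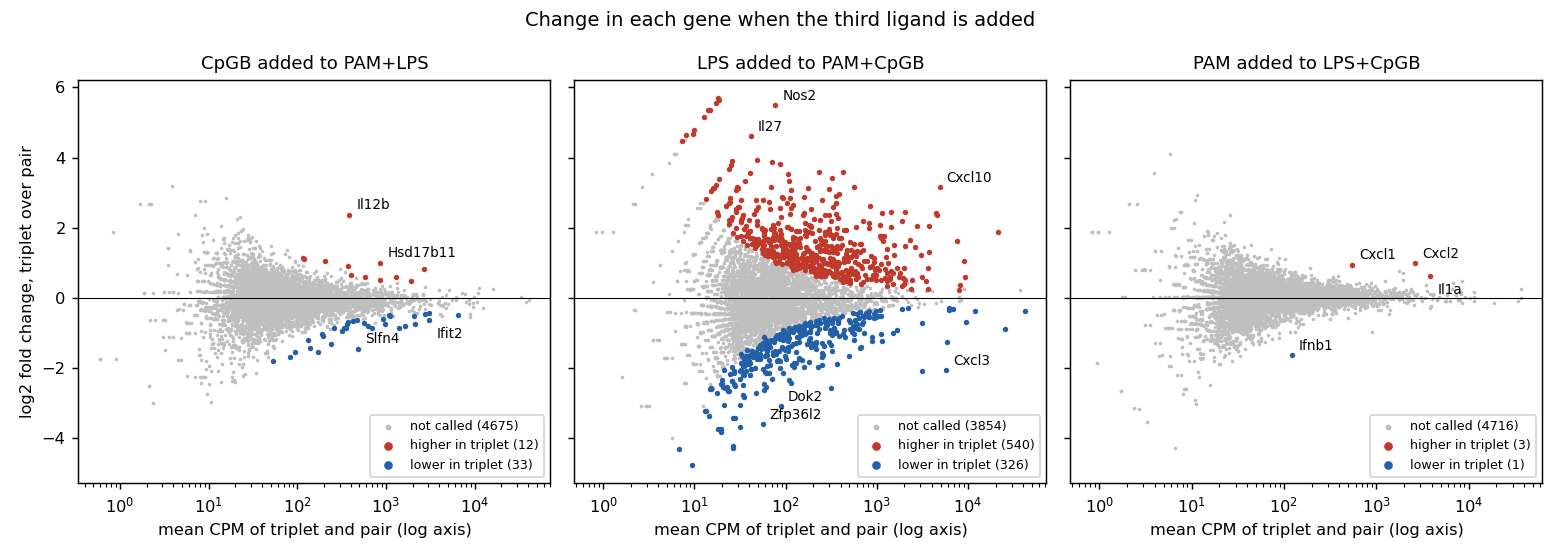
Log2 fold change of the triplet over each pair (vertical axis) against the mean CPM of triplet and pair (horizontal log axis) for the 4720 tested genes, 1 panel per added ligand. Red and blue points are genes called higher (12, 540 and 3) and lower (33, 326 and 1) in the triplet, and the middle panel, LPS added to PAM+CpGB, holds most of them.

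LPS on top of PAM+CpGB brought the interferon-stimulated genes up together, along with many cytokines and maturation genes, and took the neutrophil-attracting chemokines down. Cxcl10 stood at 1078, 1007 and 848 CPM in the PAM+CpGB libraries and at 8897, 8130.0 and 9201 in the triplet, so that the groups did not overlap. Its log2 fold change was 3.16 ± 0.19 (SE), with an adjusted p of 6.14e-36. Ifit1 went from 897, 1229 and 1056 CPM to 4376, 4249 and 4644, again with no overlap (log2 fold change 2.05 ± 0.15, adjusted p 5.43e-28). All 15 members of the interferon response list rose, beside 11.4% of tested genes, with log2 fold changes of 1.34 (Zbp1, a sensor of Z-form nucleic acid) to 3.16 (Cxcl10) and a median of 2.41, where the median of all tested genes was -0.05. Among the others were Mx1 (2.04), Isg15 (1.76), a ubiquitin-like modifier, and Irf7 (1.78), the factor that amplifies interferon production. Mx1 is known as the gene of an antiviral GTPase, but RefSeq lists it as a transcribed pseudogene, so its value is of a transcript only. The 15 genes kept their calls in all 17 alternatives, and scaling by library size alone, which shifted the median of all genes to -0.21, left them higher. The 5 plasmacytoid dendritic cell markers moved the same way: they summed to 459 to 553 CPM in PAM+CpGB and 850 to 1025 in the triplet, mostly from Bst2, itself an interferon-induced gene, and Tcf4. Bst2 stood at 458 and 752 CPM and Tcf4 at 54.8 and 186, while Ly6d was at 0 in both groups and Siglech was at 0 in PAM+CpGB. Their part in the result was not tested.

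The gene of interferon beta itself, Ifnb1 (chr4:88522025-88522794), had 0, 2 and 1 counts in the PAM+CpGB libraries and 3, 17 and 11 in the triplet, so that the triplet held 7.48 times the pair (exact 95% interval from counting 2.33 to 38.2, adjusted p 0.00295). That call was lost in 2 of 17 alternatives, and without both libraries that stand apart the adjusted p was 0.0512. In the list of receptors and adaptors, 4 rose and 1 fell of 21 tested, shares near the 11.4% and 6.91% of all tested genes: Irf8 (2.00), Irf1 (1.88) and Irf7, factors that drive interferon-responsive promoters, and Tbk1 (0.82), the kinase of IRF3, rose, and Cd14, the LPS co-receptor, fell from 1832, 2058 and 2104 CPM to 1147, 825 and 1069 (-0.99, adjusted p 1.49e-09). The Tbk1 call was lost in 9 of 17 alternatives, also without both libraries (adjusted p 0.173). Tlr2 (-0.23, adjusted p 0.435) was not called.

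Of the 17 cytokine genes tested, 14 rose and none fell when LPS was added (median 1.78, against -0.05 for all genes). Of all tested genes 11.4% rose and 6.91% fell. Among the 14, the call of Il12a was lost in 1 of 17 alternatives. Il6, a cytokine of the acute phase, went from 1336, 1459 and 1448 CPM to 3833, 3677 and 4121 (log2 fold change 1.45 ± 0.14, adjusted p 2.78e-18). Il12b, the p40 chain that IL-12 and IL-23 share, went from 66.8, 141 and 64 CPM to 994, 378 and 511 (2.70 ± 0.40, adjusted p 4.12e-09). Neither gene's groups overlapped. The largest ratios belonged to genes nearly silent under PAM+CpGB: Il27, the p28 chain of IL-27, had 1 count in that pair and 43 in the triplet (ratio 31.1, interval 5.30 to 1258), and Il10, an anti-inflammatory cytokine, had 1 and 26 (ratio 18.8, interval 3.09 to 772). In contrast, Tnf (0.27, 95% interval -0.03 to 0.57) and Il1b (-0.08, -0.30 to 0.14), cytokines that act early in inflammation, were not called.

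The 18 chemokine genes split: 10 rose, 3 fell and 5 were not called, beside 11.4% of all tested genes higher and 6.91% lower. Without both libraries that stand apart the call of Ccl12 was lost (adjusted p 0.239). Among those that rose, Ccl5, which draws T cells and monocytes, went from 9218, 8329.5 and 9904 CPM to 35243, 28375 and 36530.5 (1.87 ± 0.14, adjusted p 8.63e-26), and Ccl2 (3.13), Cxcl9 (3.07) and Ccl4 (1.62) are ligands that attract monocytes and T cells. The 3 that fell are CXCR2 ligands that attract neutrophils. Cxcl3 fell from 9580.1, 8633 and 9136 CPM to 2609, 1416 and 2616 (-2.05 ± 0.19, adjusted p 2.5e-19), Cxcl2 from 7748, 9151 and 8072 to 4215, 2549 and 3749 (-1.26 ± 0.16, adjusted p 4.19e-11) and Cxcl1 from 1431, 1577 and 1392 to 857, 477 and 854 (-1.03 ± 0.19, adjusted p 3.57e-06). Every triplet library lay below every PAM+CpGB library for these 3 genes, and triplet replicate 2 was the lowest of its group. Without that library and PAM+LPS replicate 1 the 3 calls remained.

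Maturation and MHC class I genes rose with LPS as well, beside 11.4% of all tested genes higher and 6.91% lower. Of 14 dendritic cell maturation genes 12 rose (median 1.02) and none fell, among them Cd40, a receptor for T cell help, from 601, 799.6 and 608 CPM to 3152, 2967 and 3063 (2.18 ± 0.15, adjusted p 1.74e-29), Cd86 (1.91), a co-stimulatory ligand, and Ccr7 (0.76), the receptor that guides dendritic cells to lymph nodes. The calls of Fscn1, Icam1 and Ccl22 in this list were lost in 12, 5 and 4 of 17 alternatives, those of Fscn1 and Icam1 also without both libraries that stand apart. Of 14 MHC class I pathway genes 13 rose (median 0.86), from H2-T23 (1.39) and the peptide transporter Tap1 (1.38) to the light chain B2m (0.59), and the calls of Psmb9, Psmb8, Psme2 and Tap2 were lost in 6, 1, 1 and 1 of 17 alternatives. Of 8 MHC class II genes only the protease Ctss rose, a share near that of all tested genes and a call that was lost in 2 of 17 alternatives. Feedback inhibitors gave 13 higher and 2 lower of 21: the phosphatase Dusp1 (2.88), the receptor antagonist Il1rn (2.36) and the cytokine signalling suppressors Socs1 (1.45) and Socs3 (1.31) rose, while Irak3 (-1.91), a kinase-like brake on MyD88 signalling, and the receptor Gpr84 (-0.88) fell.

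Among metabolic genes there were calls in both directions, beside 11.4% of all tested genes higher and 6.91% lower. Nos2 (chr11:78920787-78960226), the inducible nitric oxide synthase, had 1 count in PAM+CpGB and 79 in the triplet (ratio 57.2, interval 9.97 to 2287), and it was among 4 of 7 genes of arginine, nitric oxide and itaconate metabolism that rose. Of 17 glycolysis genes 3 rose, a share near that of all tested genes, with the regulator Pfkfb3 at 1.49, and 5 fell, among them Gapdh (-1.02) and Aldoa (-0.87), enzymes of the pathway itself. Those 3 kept their calls in all 17 alternatives, and the other 5 (Pfkp, Hk2, Slc16a3, Pkm and Pgk1) lost theirs in 3 to 9 of 17, all but Pkm also without both libraries that stand apart. Of 30 mitochondrial respiration genes 1 rose (Cycs, a call lost in 9 of 17 alternatives) and none fell. Of 21 lysosome and phagocytosis genes 7 rose and 3 fell. Among them the scavenger receptor Marco fell from 5744, 4820.0 and 4528 CPM to 1453, 909 and 1273 (-2.07 ± 0.18, adjusted p 4.57e-21). In that list the calls of Ctsb, Ctsz, Gpnmb and Ctsd were lost in 13, 12, 7 and 4 of 17 alternatives, the first 3 also without both libraries that stand apart. Of 11 NF-kB factors 3 rose, and the calls of Nfkb1 and Nfkbia among them were lost in 12 and 8 of 17 alternatives.

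By size, among genes of at least 50 CPM whose groups did not overlap, Nos2, Il27, Cxcl11, Hopx and Iigp1 were among the greatest rises. Cxcl11, known as the gene of a chemokine of the Cxcl10 receptor, had 2 counts against 48 (ratio 17.4, interval 4.55 to 148). RefSeq lists Cxcl11 as a transcribed pseudogene, so its counts are of a transcript only. Hopx, a homeodomain protein, had 3 against 66 (ratio 15.9, interval 5.22 to 79.2). Iigp1, an interferon-inducible GTPase, went from 19.1, 44.4 and 40.0 CPM to 398, 522 and 384 (3.60 ± 0.37). The greatest falls were of weakly expressed genes. Dok2, an adaptor that dampens tyrosine kinase signals, went from 115, 170.3 and 184 CPM to 38.2, 0 and 23.2 (-3.09 ± 0.52) and Zfp36l2, which speeds the decay of mRNAs, from 105, 96.3 and 112 to 0, 9.94 and 11.6 (-3.60 ± 0.62). The kinases Plk3 and Abl1, the chemerin receptor Cmklr1 and the desaturase Scd2 had 18 to 22 counts in PAM+CpGB and 1 or 2 in the triplet, where ratios of 12.4 to 26.2 have intervals that begin at 2.98 to 4.17, and the Scd2 call was lost in 1 of 17 alternatives. Of 142 called genes examined under every alternative but the fold threshold (the list members and those picked by size), 102 kept their call throughout. The count of 866 was 562 without replicate 2 of each group, 658 without both libraries that stand apart, 676 with counts thinned to equal totals, where 3369 genes were tested in place of 4720, and 949 with library sizes unscaled, of which 45.8% rose in place of 62.4%. PAM+CpGB is the shallowest pair.

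**Figure D2:**
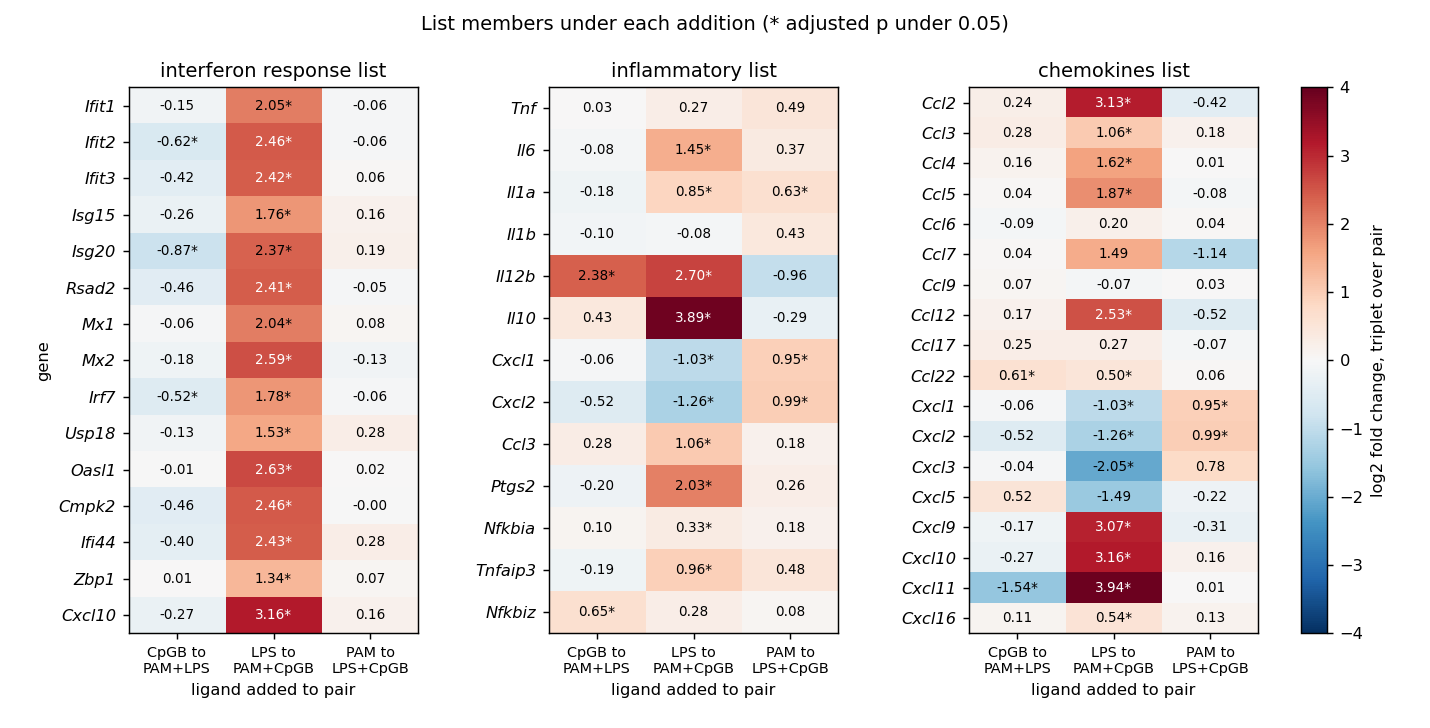
Log2 fold change (colour and printed value) of each tested member of the interferon response, inflammatory and chemokine lists (rows) under the 3 additions (columns), with an asterisk at an adjusted p under 0.05. All 15 interferon response genes are red in the LPS column, 3 are called lower in the CpGB column and none is called in the PAM column, while Cxcl1 and Cxcl2 are lower in the LPS column and higher in the PAM column.

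CpGB on top of PAM+LPS gave its largest rise in Il12b (chr11:44400063-44414677). The PAM+LPS libraries held 228, 107 and 70.9 CPM and the triplet libraries 994, 378 and 511, so that the groups did not overlap, although replicate 1 was the highest of both. The log2 fold change was 2.38 ± 0.35, with an adjusted p of 3.32e-07. The level in the triplet (628 ± 324 CPM, SD, n = 3) lay below that of LPS+CpGB (1191 ± 360.1), whose libraries held 1299, 1485 and 789.8, and above that of CpGB alone (173 ± 7.14). Triplet and LPS+CpGB were not called different. Hsd17b11 (chr5:103989765-104021796), a dehydrogenase of lipid droplets, went from 592, 636 and 510.5 CPM to 1239, 1163 and 1058 (1.00 ± 0.17, adjusted p 2.57e-05). Anxa1, annexin A1, a phospholipid-binding protein that limits inflammation, went from 1695, 2212 and 1886 CPM to 3389, 3568 and 3453 (0.84 ± 0.14, adjusted p 2.16e-05). Both genes stood lower with each ligand alone than in the triplet: Hsd17b11 at 215, 428 and 350.3 CPM and Anxa1 at 803, 1340.4 and 1629.8 under PAM, LPS and CpGB.

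Among genes of at least 50 CPM whose groups did not overlap, the other rises of largest size were in Ncoa5 (1.14), a nuclear receptor coregulator, Ube2f (1.11), a conjugating enzyme for NEDD8, Dusp1 (1.06) and the motor protein Myo10 (0.90). Dusp1 held 54.7, 166 and 156 CPM in PAM+LPS and 237, 358 and 249.9 in the triplet, with replicate 1 the lowest in both. Its call was lost in 8 of 17 alternatives, and without both libraries that stand apart its log2 fold change was 0.64 (adjusted p 0.442). Without them the calls of Ube2f (0.97, adjusted p 0.203), Myo10 (0.88, adjusted p 0.0617) and Nfkbiz (0.64, adjusted p 0.138) were lost as well, while Ncoa5 (1.33) and Ccl22 (0.72) were called. Of the lists, the NF-kB cofactor Nfkbiz rose from 309.8, 305 and 319 CPM to 444, 512 and 506 (0.65) and the chemokine Ccl22, which draws regulatory T cells, from 1194, 1122 and 791 to 1484, 1590.2 and 1546 (0.61). With Il12b, 2 of 13 inflammatory genes were thus called, and in the cytokine list Il12b was called alone of 17. Of all tested genes 0.254% rose and 0.699% fell. Il6 (-0.08, 95% interval -0.34 to 0.17), Tnf (0.03, -0.27 to 0.33) and Il1b (-0.10, -0.32 to 0.12) were not called.

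Of the 33 genes that fell, Slfn4 (chr11:83175172-83190216), an interferon-inducible schlafen gene of myeloid cells, held 374, 769 and 936 CPM in PAM+LPS and 222, 293 and 279 in the triplet (-1.44 ± 0.23, adjusted p 2.17e-06). Its PAM+LPS replicate 1 was the nearest to the triplet. Cd14 went from 1786, 1517 and 2074 CPM to 1147, 825 and 1069 (-0.84 ± 0.14, adjusted p 9.8e-06). In the interferon response list 3 of 15 genes fell and none rose, beside 0.699% of all tested genes lower: Isg20 (-0.87), an exonuclease, Ifit2 (-0.62) and Irf7 (-0.52). The list's median was -0.27 and 14 of its 15 values were negative, with all tested genes at -0.05. Ifit2 held 2469, 4322 and 4311 CPM in PAM+LPS and 2287, 2420.1 and 2616 in the triplet, so that PAM+LPS replicate 1 lay among the triplet libraries. Irf7 held 1786, 2666 and 2797 CPM against 1545, 1685 and 1889 and Isg20 301, 513 and 546 against 291, 308 and 180.2. The summed plasmacytoid dendritic cell markers moved with them, from 1057 to 1553 CPM in PAM+LPS to 850 to 1025 in the triplet, with Bst2 at 1104 and 752, and their part was not tested. Cxcl11, which RefSeq lists as a transcribed pseudogene, held 91.1, 321 and 347 CPM against 68.8, 134 and 69.7 (-1.54 ± 0.33, adjusted p 0.00432).

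By size, among genes of at least 50 CPM whose groups did not overlap, the other falls were in Stx3 (-1.80), a SNARE protein of vesicle fusion, Scimp (-1.67), an adaptor at the membrane that binds Toll-like receptors, Hspa1b (-1.55), a heat shock protein, Fzd1 (-1.21), a Wnt receptor, and Ms4a4c (-0.86). Scimp held 72.9, 160.3 and 145 CPM in PAM+LPS and 30.6, 44.7 and 46.5 in the triplet, and Fzd1 146, 160.3 and 234 against 84.1, 89.4 and 69.7. For Stx3, Scimp and Fzd1 PAM+LPS replicate 1 was again the library nearest to the triplet. No gene of the MHC class I (14 tested), MHC class II (8) or mitochondrial respiration (30) lists was called, which is near the 0.953% called of all tested genes. Of the 14 MHC class I values 13 were negative (median -0.19). Of all 4720 tested genes 2109 had positive values, with a median of -0.05, or 0.03 with library size alone.

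The CpGB calls rested on few libraries. Leaving out PAM+LPS replicate 1, 2 or 3 gave 68, 14 or 6 called genes in place of 45, leaving out triplet replicate 1, 2 or 3 gave 16, 25 or 15, and leaving out both libraries that stand apart gave 52, of which 33 were among the 45. With counts thinned to equal totals 13 of 3369 tested genes were called, and the share that rose was 26.7% with TMM scaling and 48.4% with library size alone. Without both libraries the log2 fold change was 3.13 for Il12b, 1.05 for Hsd17b11, 0.78 for Anxa1, -1.72 for Slfn4, -0.67 for Cd14, -0.78 for Ifit2, -0.63 for Irf7, -1.17 for Isg20 and -2.23 for Cxcl11, all called. It was -2.35 for Stx3, -1.89 for Scimp, -1.97 for Hspa1b, -1.36 for Fzd1 and -0.98 for Ms4a4c, also called. Il12b, Hsd17b11, Anxa1, Slfn4 and Cd14 kept their calls in all 17 alternatives, and each other gene named for this addition lost its call in at least 1. In the interferon response list the calls of Irf7, Ifit2 and Isg20 were lost in 11, 8 and 7 of 17. Those of Ms4a4c and Nfkbiz were lost in 10 and 9 of 17, and that of Ncoa5 in 9 of 16. The 17 leave out the fold threshold, which Anxa1 and Cd14 would not pass. The chemokine Cxcl3 was not called (-0.04), with 4529, 1309 and 1312 CPM in PAM+LPS and 2609, 1416 and 2616 in the triplet. Without PAM+LPS replicate 1, the highest of these 6, it was called higher in the triplet (0.80, adjusted p 0.0156).

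**Figure D3:**
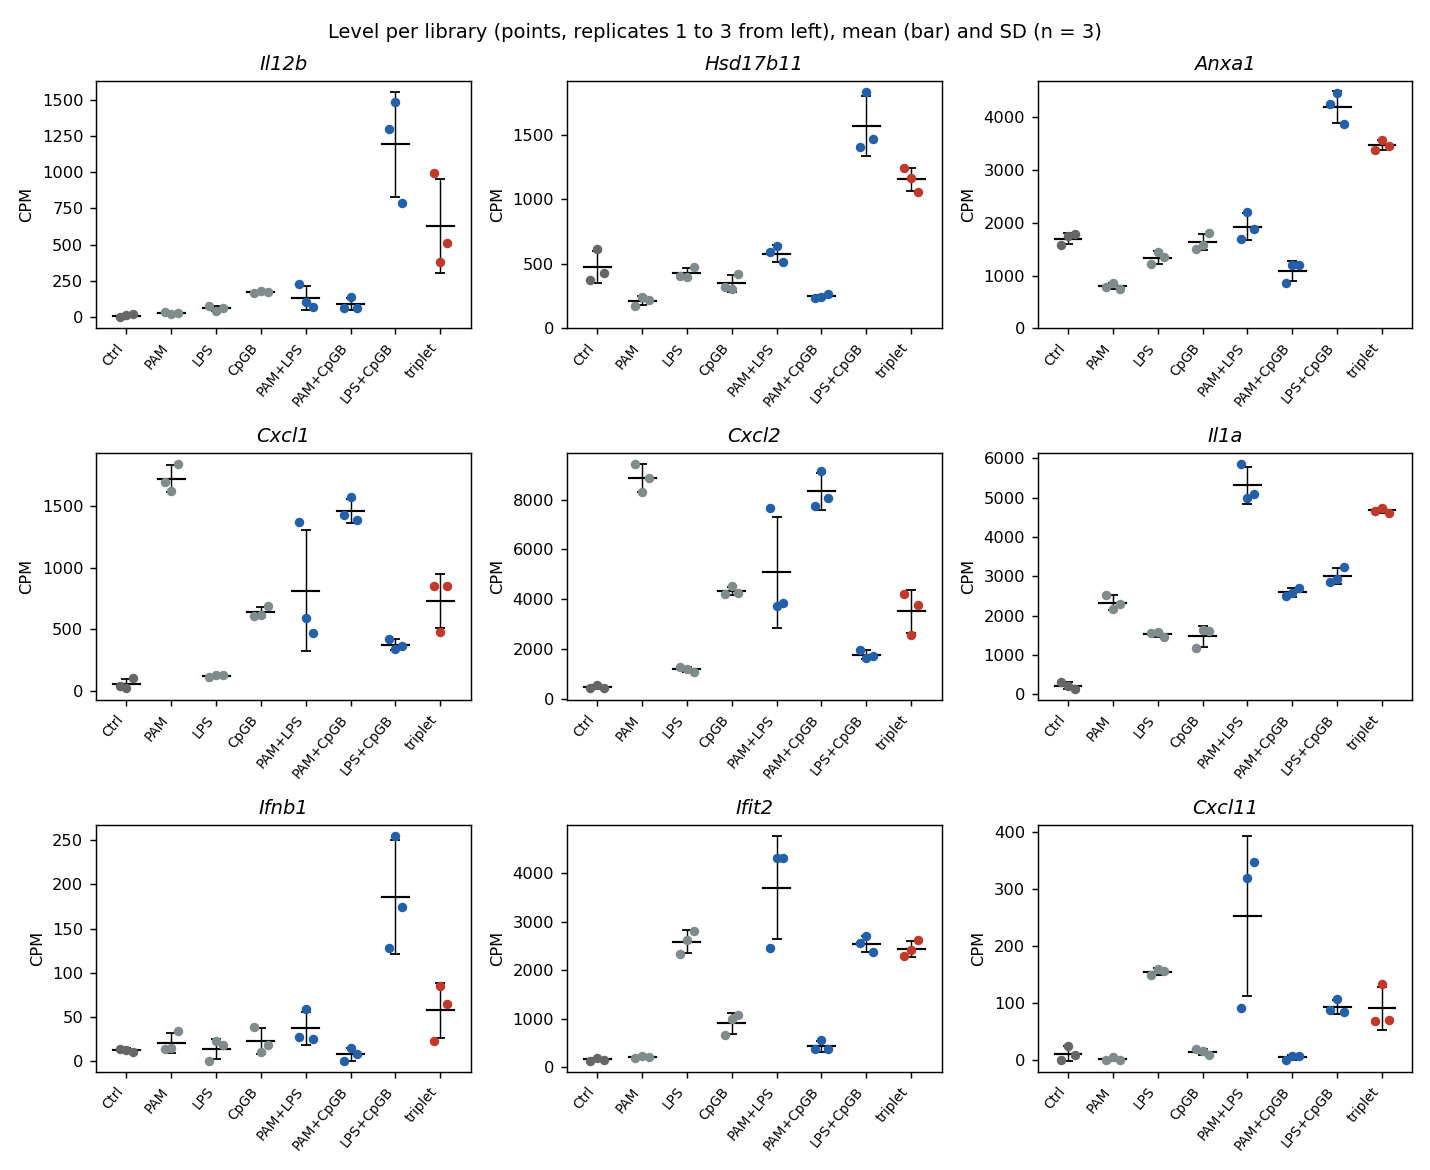
CPM (linear vertical axes) of 9 genes in the 3 libraries of Ctrl, the single ligands, the pairs and the triplet. Points are libraries, horizontal bars means and whiskers SD (n = 3). Il12b, Hsd17b11 and Anxa1 are highest in LPS+CpGB and next in the triplet, Cxcl1 and Cxcl2 are highest under PAM and PAM+CpGB, and within PAM+LPS 1 library stands apart for Cxcl1, Cxcl2, Ifit2 and Cxcl11.

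PAM on top of LPS+CpGB changed the chemokines Cxcl2 and Cxcl1, the cytokine Il1a and Ifnb1. Cxcl2 rose from 1965, 1616 and 1721 CPM to 4215, 2549 and 3749 (0.99 ± 0.17, adjusted p 0.000162), and Cxcl1 from 425, 340.2 and 362 CPM to 857, 477 and 854 (0.95 ± 0.22, adjusted p 0.0235). For both genes each triplet library exceeded each LPS+CpGB library. Il1a, the alpha form of interleukin 1 (chr2:129299609-129310186), rose from 2855, 2919.7 and 3244 CPM to 4659, 4741 and 4615 (0.63 ± 0.13, adjusted p 0.0047). The triplet libraries differed by little among themselves and lay clear of those of the pair. Ifnb1 had 16, 45 and 37 counts in LPS+CpGB and 3, 17 and 11 in the triplet, or 128, 255 and 174 CPM against 22.9, 84.5 and 63.9, a log2 fold change of -1.62 ± 0.35 (adjusted p 0.00761). Its groups did not overlap, and triplet replicate 1 was the lowest.

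None of the other list members was called. The 15 interferon response genes had a median of 0.06, with values from -0.13 to 0.28, and Cxcl10 held 7578, 7767 and 8147 CPM in LPS+CpGB and 8897, 8130.0 and 9201 in the triplet. In the inflammatory list 3 of 13 rose (Cxcl2, Cxcl1 and Il1a), beside 0.0636% of tested genes, and the list's median was 0.37 where that of all genes was 0.02. Il1b (0.43, adjusted p 0.146), Tnf (0.49, adjusted p 0.382), Il6 (0.37, adjusted p 0.779) and Cxcl3 (0.78, adjusted p 0.146) had positive values that did not pass. Il12b stood lower in the triplet (-0.96, adjusted p 0.155) and did not pass, although 6 of 17 alternatives called it.

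Of the 4 calls, that of Cxcl2 was lost in 1 of 17 alternatives (without replicate 3 of each group), Il1a in 5, Ifnb1 in 7 and Cxcl1 in 11. The count was 2, 1 or 4 without LPS+CpGB replicate 1, 2 or 3 and 3, 6 or 2 without triplet replicate 1, 2 or 3, and it was 6 without both libraries that stand apart, the 4 genes among them (Cxcl2 1.15, Cxcl1 1.18, Il1a 0.60 and Ifnb1 -2.05). Without triplet replicate 2, which had the least Cxcl3 of its group, Cxcl3 was called as well (1.00, adjusted p 0.00995).

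Seen from the triplet, no gene was called above all 3 pairs and none below all 3. In the edgeR test, 771 genes had a higher fitted value in the triplet than in each pair and 974 a lower one, but at an unadjusted p under 0.05 for the largest of the 3 p-values only 5 and 12 remained, and after adjustment 0 and 0 (0%). DESeq2 also gave 0 and 0, with 5 and 9 at the unadjusted level, and all alternatives gave 0. A gene could pass only if called in all 3 additions, and adding PAM to LPS+CpGB called 4 genes. Few genes could therefore pass, and the alternatives share that limit. The smallest unadjusted p-values belonged to Ube2f (smallest of its 3 log2 fold changes 0.73), the myosin Myo1f (-0.78) and the adaptor Dok3 (-2.74), each at an adjusted p of 1 and named here after their values were seen.

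Most called genes set the triplet apart from PAM+CpGB, the pair without LPS. Of the 4720 genes 505 were higher than PAM+CpGB alone of the pairs, 322 were lower than it alone, and 3844 differed from no pair. A further 24 genes were higher than PAM+CpGB and lower than PAM+LPS, among them Cxcl11, Ifit2, Irf7, Isg20 and Slfn4. Another 9 were higher than both PAM+LPS and PAM+CpGB (Il12b, Hsd17b11, Anxa1, Ccl22, Dusp1, Ncoa5, Ube2f, Ddhd1 and Lgals3, the last pair named after their values were seen), which leaves LPS+CpGB as the pair from which they were not called different. Cd14 and Neat1, a nuclear RNA also named after its values were seen, were lower than both PAM+LPS and PAM+CpGB. Cxcl1 and Cxcl2 lay between PAM+CpGB and LPS+CpGB, Ifnb1 did so in the opposite order, and Il1a was above both of these pairs with PAM+LPS higher still (5308 ± 472 CPM against 4672 ± 63.9, not called).

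Each addition was also set against the effect of the same ligand given alone, since the 2 effects share no library. Among all tested genes, adding CpGB, PAM and LPS raised 0.254%, 0.0636% and 11.4% and lowered 0.699%, 0.0212% and 6.91%. Of the 592 genes that CpGB alone raised over Ctrl (12.5% of those tested), 6 (1.01%, or 50% of the 12) also rose when it was added to PAM+LPS and 24 fell. Of the 457 raised by PAM alone (9.68%), 3 (0.656%, or 100% of the 3) rose when it was added to LPS+CpGB and 0 fell. For LPS, which raised 807 alone (17.1%), 396 (49.1%, or 73.3% of the 540) rose in both. When LPS was added 42 of the 807 fell, near the 6.91% given above. The median log2 fold change of these genes went from 1.80 alone to -0.13 added for CpGB, from 1.59 to 0.07 for PAM and from 1.88 to 0.74 for LPS, where the values alone are raised by the choice of genes.

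The difference between the added and the lone effect was tested for all genes. It was called in 763 genes for CpGB (16.2%), with a lower value when added in 564 (11.9%) and a higher one in 199 (4.22%). For LPS it was called in 503 (10.7%), 382 lower (8.09%) and 121 higher (2.56%), and for PAM in 463 (9.81%), 308 lower (6.53%) and 155 higher (3.28%). For Il1b the level was 313 ± 51.4 CPM in Ctrl, 8129.7 ± 506, 3515 ± 107 and 5542 ± 826 under PAM, LPS and CpGB, and 7758 ± 1068 in the triplet (SD, n = 3), and its log2 fold change with CpGB was 4.16 alone and -0.10 in addition (difference -4.27 ± 0.20, adjusted p 3.8e-50). Cxcl2 followed with 4.27 for PAM alone and 0.99 in addition (difference -3.29 ± 0.28, adjusted p 3.96e-22). Cxcl10 kept more of its LPS effect, 4.25 alone and 3.16 added (difference -1.09 ± 0.32, adjusted p 0.00892).

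Hsd17b11 and Anxa1 went the other way. CpGB alone left Hsd17b11 at -0.41 (adjusted p 0.238) and Anxa1 at -0.06 (adjusted p 0.84), so that neither was called with CpGB alone, and the differences were 1.41 ± 0.29 (adjusted p 5.58e-05) and 0.90 ± 0.22 (adjusted p 0.00064). For LPS the differences were 2.34 ± 0.32 and 2.00 ± 0.23 (adjusted p 4.97e-10 and 4.36e-14). Il12b rose with CpGB alone (3.82, from 3 counts in all of Ctrl) and in addition, and its difference of -1.44 ± 1.15 was not called (adjusted p 0.461).

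The three-way interaction, the triplet minus its 3 pairs plus the 3 single ligands minus Ctrl on the log2 scale, was called in 188 genes (3.98%), of which 154 were positive (3.26%) and 34 negative (0.72%). Among the positive values were those of genes that rose with each ligand alone: Marco (4.09 ± 0.41, adjusted p 9.63e-17), Cxcl3 (3.75 ± 0.44, adjusted p 1.09e-12) and Il1b (3.34 ± 0.26, adjusted p 5.39e-24). Negative values were found for Anxa1 (-1.31 ± 0.31, adjusted p 0.00202) and Hsd17b11 (-1.46 ± 0.44, adjusted p 0.0279).

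**Figure D4:**
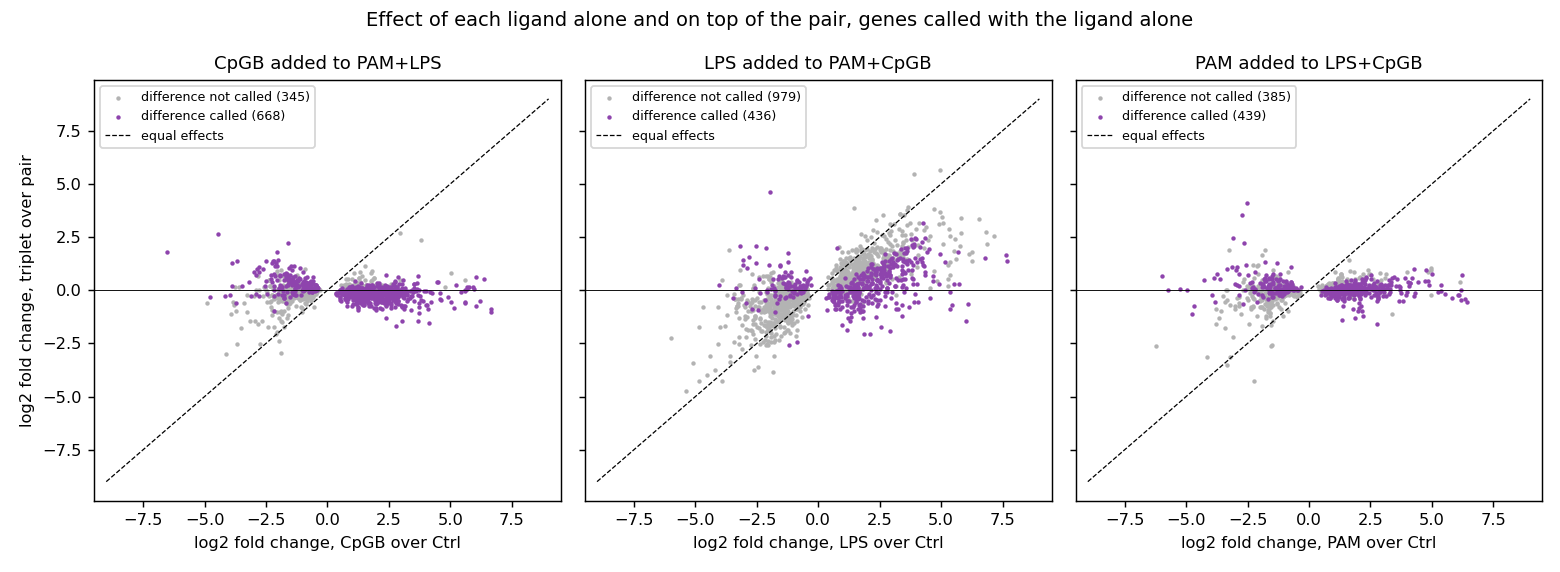
Log2 fold change of each ligand over Ctrl (horizontal) and of the triplet over the pair that lacks the ligand (vertical), for genes called with the ligand alone. Purple points are genes whose 2 effects differed at an adjusted p under 0.05 (668 of the 1013 called with CpGB, 436 of 1415 with LPS and 439 of 824 with PAM, where 21.5%, 30% and 17.5% of tested genes were called), the dashed line marks equal effects, and the median of the genes raised alone is -0.13 for CpGB, 0.74 for LPS and 0.07 for PAM on the vertical axis.

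Among the 105 ways of adding 1 more ligand to a pair in the series, the numbers of called genes ran from 0 to 1232 with a median of 183. LPS added to PAM+CpGB ranked 7th, CpGB added to PAM+LPS 69th and PAM added to LPS+CpGB 85th. For each ligand over its 15 additions the median was 490 for LPS (76 to 1045), 113 for CpGB (0 to 482) and 48 for PAM (4 to 779), and no other PAM addition changed fewer genes than that to LPS+CpGB. These counts move with depth as well as with the ligands, and the part of depth was not tested.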

How the data were processed

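The authors deposited 1 table of whole-number counts, named as UMI counts (counts of tagged cDNA molecules per gene), for 23481 genes in all libraries. Per the labels' protocols, RNA of each well was reverse transcribed with template switching, pooled as cDNA and sequenced on an Illumina NextSeq. The submitters' processing notes name BWA 0.7.15 and mm10, with no role or settings given, and how UMIs were collapsed and reads of several genes were counted is not given in the sources used here. Values of genes with near-identical copies, such as Hspa1b or members of the Ifit, H2 and Slfn families, are therefore uncertain. A table column was tied to a sample only where its name was that sample's title with the letter r added at the end. Library totals ranged from 46564 to 610234 counts, which limits the precision for weakly expressed genes most.

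Genes were kept by edgeR's filterByExpr (4720 kept), scaled by TMM, and fitted with edgeR 4.0.16 (glmQLFit, glmQLFTest, R 4.3.3) with 1 coefficient for each of the 64 groups, so that all libraries share 1 estimate of the spread. Each contrast's p-values were adjusted by Benjamini-Hochberg over the 4720 genes, and an adjusted p under 0.05 was a call. A gene above or below all 3 pairs was tested by the largest of its 3 p-values. Ratios of counts with 3 or fewer in a group have exact 95% intervals that cover counting error only. The pipeline was tested on simulated data. Named genes are members of the gene lists and, per addition, the 6 strongest rises and the 6 strongest falls among called genes of at least 50 CPM whose groups do not overlap. For each difference from the effect of a ligand alone, and for the three-way interaction, they are the 2 called genes of largest positive and negative value. A gene that this rule picks for LPS added is not reported here. The comparison and the lists were chosen with earlier results of these data known.

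Alternatives were DESeq2 1.42.0, RLE factors, library size alone, no filter, the 12 libraries only, thinned counts, a fold threshold, the replicate block and leaving out replicates. The fold threshold was applied only to the numbers of called genes, and the alternatives counted for a single gene leave it out. Leaving out both libraries that stand apart was chosen after seeing the data. Same-numbered libraries deviated together weakly or not at all, so the samples were treated as unpaired. Symbols matched RefSeq (GRCm38.p6) for 4468 of the 4720 tested genes.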

Additional observations from a re-analysis of the deposited data

Results flagged for a closer look

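The effect of the added ligand was tested against its effect alone, and the 2 effects differed in 763 genes for CpGB, in 503 for LPS and in 463 for PAM. The three-way interaction was called in 188 genes. For each of these tests the called genes of largest size are given as fitted values on the log2 scale. Nearly all of them rest on a group with 0 to 3 counts over its 3 libraries, so that the fitted value depends on the prior count and is no bound.

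For CpGB, Phf11a (-7.67) and Upp1, uridine phosphorylase (-7.52), had a lower effect in addition than alone. Both had 0 counts in Ctrl. Phf11a had 38 counts with CpGB, 161 with PAM+LPS and 66 in the triplet, and Upp1 had 38, 189 and 86. C77080 (8.34) and Hip1 (7.13) had a higher one. C77080 had 0 counts with CpGB, 17 in Ctrl, 1 in PAM+LPS and 4 in the triplet, and Hip1 had 2 counts with CpGB, 26 in Ctrl, 0 in PAM+LPS and 2 in the triplet.

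For LPS, Tfec, a transcription factor of the MiT family (-7.47), and Icosl, a co-stimulatory ligand (-6.75), had 0 counts in Ctrl and a lower effect in addition than alone. Tfec had 25 counts with LPS, 33 in PAM+CpGB and 16 in the triplet, and Icosl had 27, 17 and 15. Cxcl14, a chemokine (5.24), had 32 counts in Ctrl, 7 with LPS, 1 in PAM+CpGB and 7 in the triplet. Slc37a2 (4.50) had 41, 10, 3 and 12 counts in the same groups.

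For PAM, Ampd3, an AMP deaminase (-6.95), and again Tfec (-6.78) had 0 counts in Ctrl. Ampd3 had 33 counts with PAM, 6 in LPS+CpGB and 4 in the triplet. Rab11fip5 (6.60) and C77080 (6.29) had 0 counts in LPS+CpGB, where the triplet held 6 and 4.

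In the three-way interaction Ddx60 (6.74) and Med11 (6.42) had 0 counts in Ctrl, while Egr2, an early growth response factor (-5.45), had 1 count in the triplet and 8 to 13 in each pair, and Daglb (-5.05) had 46 counts in Ctrl and 3 with CpGB. Calls were lost for Daglb in 18 of 32 alternatives and for Med11 in 12 of 31.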

How the results depend on the processing

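CpGB added to PAM+LPS changed 45 genes as reported, 15 at a log2 fold change of at least 1, 13 with counts thinned to equal totals and 5 to 68 when replicates were left out. Without replicate number 1, 2 or 3 of every group it changed 60, 10 or 5. LPS added to PAM+CpGB gave 866, and 562 to 782 with replicates left out. PAM added to LPS+CpGB gave 4, and 7 in a fit of the 12 libraries only, 1 at a log2 fold change of at least 1, 8 with no filter on low counts, 2 with thinned counts and 0 to 6 with replicates left out. The differences from the effect alone gave 484 to 782 genes for CpGB, 335 to 498 for LPS and 265 to 450 for PAM with replicates left out, and the three-way interaction 114 to 225. No alternative called a gene above or below all 3 pairs.

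Scaling moved the share of called genes that were higher. For CpGB added it was 26.7% as reported, 39.4% with DESeq2 (13 of 33) and 48.4% with library size alone (15 of 31). For LPS added it was 62.4%, 45.8% with library size alone and 73.9% with no filter. Library size alone gave 399 higher and 427 lower for the CpGB difference, 186 and 330 for the LPS difference and 215 and 257 for the PAM difference, where RLE factors gave 205 and 264.

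Over the named and listed genes, 5197 values kept their side of the threshold, though some of them that were not called changed sign. Cxcl1 with CpGB added, for example, was never called and ran from -0.54 to 0.74. A call was lost in 632 values and gained in 31, and 3 changed sign with a call in the alternative. The 3 are Cxcl3 with CpGB added, -0.04 and not called as reported, which was 0.80 without PAM+LPS replicate 1, 0.66 without replicate 1 of every group and 1.03 without both libraries that stand apart (adjusted p 0.0156, 0.0379 and 0.000929). Leaving out replicates moved it from -0.53 (without replicate 3) to 0.80. PAM+LPS replicate 1 is left out in each of these.

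With the replicate number as a block the counts were 49, 881 and 6 for CpGB, LPS and PAM added, 783, 507 and 475 for the differences, 209 for the three-way interaction and 0 and 0 for all 3 pairs. Same-numbered libraries of triplet and pair had correlations of -0.03 to 0.07 in their deviations. Differently numbered ones had -0.11 to 0.08 with PAM+LPS and -0.04 to 0.03 with LPS+CpGB. With PAM+CpGB the same-numbered values, 0.037 to 0.045, all lay above the differently numbered ones, -0.039 to -0.0006, so a weak pairing is possible there. Depth limits the weakly expressed genes, for which counts of 0 to 3 in a group leave wide intervals.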
